A study of Mus musculus with 16 samples.

Results

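Gene expression in livers of old mice that had received a plasmid for human MANF was compared with that in livers of young mice that had received the control plasmid, to measure how far MANF-treated old liver lay from untreated young liver. All animals were C57BL/6 mice injected by the hydrodynamic tail vein method, in which a large volume is pushed into the tail vein within seconds so that plasmid DNA enters mainly hepatocytes. Young control mice were 5 months old and carried an empty enhanced episomal vector (EEV). Old MANF mice were 23 months old and carried the EEV coding for human MANF. Livers were taken 5 weeks after the injection, and sex was not stated in the labels. Each group had 4 animals with 1 library each, so the comparison rested on 8 of the 16 libraries of the study. Old mice of 23 months with the empty vector (old control, 4 animals) are set beside the comparison. Age and plasmid differed together between old MANF and young control livers and cannot be told apart within that contrast. Genes entered when at least 4 of the 8 libraries reached 0.5 RPKM (reads scaled by gene length and by the depth of the library), which kept 10365 of the 24010 table entries. Of these, 57 entered through old MANF libraries alone and 9 through young control libraries alone, every library of the other group being under 0.5 RPKM. Genes with 1 library of the lower group at 0.5 RPKM or more are not in these counts, though they too owed their entry to the higher group.

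MANF is a small protein of the endoplasmic reticulum (ER) that binds the chaperone BiP, is induced when proteins misfold there, and is secreted in part. In the mouse it acts on immune cells as well as on secretory cells, and its level falls with age in several tissues. The male mouse liver keeps a pattern of secreted proteins and enzymes, such as the major urinary proteins and several cytochrome P450s, that depends on pulses of growth hormone, while with age it tends to gain immune cells and their transcripts.

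Depth was similar over the libraries, with 11846999 to 16579796 reads in listed genes, and albumin took 6.84 to 11.8% of them. Hepatocyte markers summed to 27370 to 31591 RPKM in young control, to 36617 to 44814 RPKM in old MANF and to 28108 to 41520 RPKM in old control livers. Most of each sum was albumin, at 20141 to 23180 RPKM in young control and 27724 to 34329 RPKM in old MANF livers. Between old MANF and young control 0 of the 5 markers passed the test used below. Markers of pancreas, muscle and fat summed to at most 0.174 RPKM in old MANF and 0.177 RPKM in young control livers, with Cpa1 and Myh4 at 0 in all 8. Among the old control livers, replicate 4 stood apart with high immune transcripts, which touches the values given for that group below. Young control replicate 2 had the highest marker sums of its group for macrophages, lymphocytes, endothelium and stellate cells, so the immune lists below are counted with and without it.

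Old MANF liver differed from young control liver in 563 of 10365 genes, or 5.43% (limma, Benjamini-Hochberg adjusted p under 0.05). Of these, 334 genes (3.22%) were higher and 229 (2.21%) lower in old MANF liver, and 132 of them differed by a log2 of at least 1. Calls in the gene lists below are to be read beside these shares of all genes. The rises had a median log2 of 0.72 and the falls of -0.59, against a median of -0.0036 over all genes. In 549 of the 563 genes the libraries of the groups did not overlap; over all genes, 7.26% were higher and 7.23% lower without overlap. Without the scaling of each library to the median ratio, which shifted old MANF by a log2 of 0.096 relative to young control, the calls were 684 higher and 123 lower. With 1 library left out, 172 to 603 genes were called, the low values being 302 and 172 without old MANF replicates 1 and 4, and 228, 204 and 179 without young control replicates 1, 3 and 4. The call held in all 8 fits with 1 library left out for 134 genes, 76 higher and 58 lower. A fit with all 16 libraries, in which the 4 groups share 1 estimate of the spread, called 337 genes, and a fit on 14 libraries, without old control replicate 4 and young MANF replicate 3, called 1268.

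**Figure D1:**
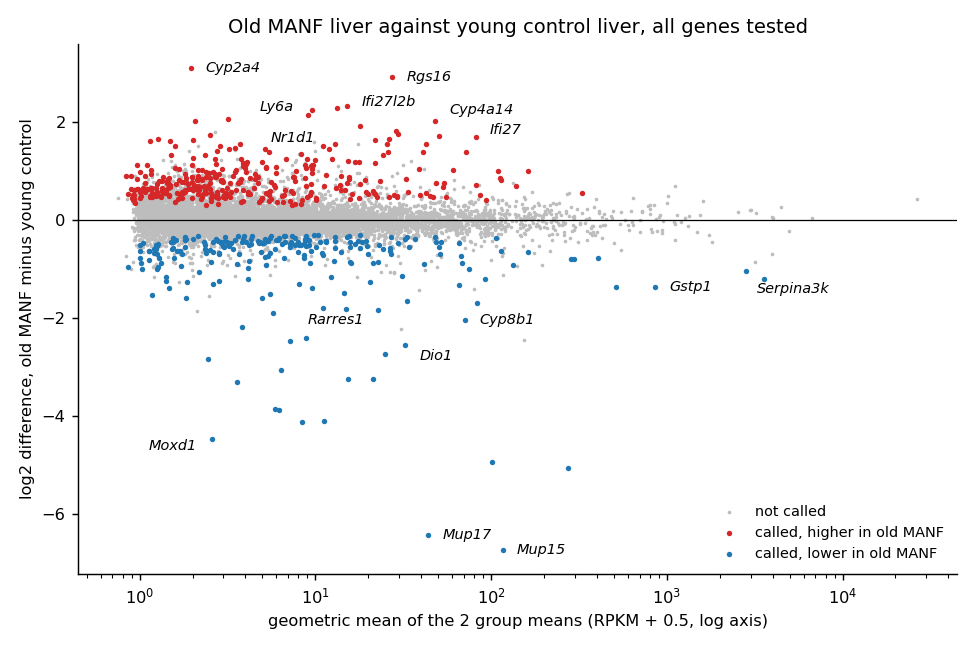
Log2 difference between old MANF and young control livers (y) against the geometric mean of the group means in RPKM + 0.5 (x, log axis) for the 10365 genes tested, 1 point per gene. Of the coloured points, 334 lie above 0 and 229 below it; major urinary protein genes reach the lowest values and Cyp2a4 the highest.

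On the first principal component of the 8 libraries, which took 44% of their variance, young control livers lay at -21.06, -10.58, -21.49 and -19.38 and old MANF livers at 17.6, 22.6, 11.25 and 21.05. The distance of each old liver from the young control mean was taken as the root mean square (RMS) log2 difference over all tested genes. Old MANF livers lay at 0.408, 0.443, 0.417 and 0.421. Old control livers lay at 0.359, 0.313, 0.333 and 0.57, the last being replicate 4, and young control livers lay at 0.228 to 0.291 from the mean of the other 3. The groups of old livers overlapped, with means of 0.422 ± 0.0145 and 0.394 ± 0.119 (SD, n = 4) and a difference of 0.0287 (exact two-sided permutation p = 0.686, smallest possible 0.0286). Without old control replicate 4, the old control mean was 0.335 ± 0.0231, below each of the old MANF livers. In the fit with all 16 libraries, 119 genes (1.15%) differed between old control and young control livers and 14 (0.135%) between old MANF and old control livers, beside the 337 between old MANF and young control. At an unadjusted p under 0.05, 1603 and 1053 genes differed in the first pair of comparisons. In fits on the 8 libraries of each comparison, 140 genes differed between old control and young control livers and 563 between old MANF and young control livers. The 14 genes rested on that shared estimate: a fit on the 8 old libraries alone called 0 (unadjusted 1109), and leaving out 1 library gave 2 (old MANF replicate 2 or 4, old control replicate 2) to 95 (old control replicate 4). The 119 genes became 22 to 111 (22 without young control replicate 4). These comparisons share libraries with each other, so their values are set side by side with no test of likeness.

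The deepest falls were in the major urinary proteins (Mup), lipocalins that hepatocytes secrete into blood and that carry pheromones into urine. Of 21 listed genes 18 were tested, 16 fell and 0 rose, with a median log2 of -3.24; 1 of the 18 entered through young control libraries alone. Mup15 (chr4:61435790-61439743, minus strand, GRCm38) was read at 1406, 697, 927 and 1053 RPKM in young control and 5.85, 4.13, 30.7 and 10.1 RPKM in old MANF livers. Mup17 (chr4:61591929-61595871, minus strand) was read at 461, 298, 274 and 375 RPKM in young control and 2.38, 1.58, 11.9 and 4.07 RPKM in old MANF livers. Every old MANF liver lay far below every young control liver for both genes, with Mup15 at log2 -6.73 ± 0.52, adjusted p = 0.000421 and Mup17 at log2 -6.42 ± 0.47, adjusted p = 0.000421 (SE after the sign ±). In old control livers Mup15 was at 16.1, 76, 60.9 and 5.03 RPKM, with a log2 of -5.32 against young control (adjusted p = 0.00302) and of -1.42 between old MANF and old control (adjusted p = 0.553).

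The promoters of these genes are shown because they carry the strongest fall and are close copies. The windows run from 250 bases before to 50 bases after the RefSeq start (GRCm38.p6), Mup15 chr4:61439655-61439954 on the minus strand and Mup17 chr4:61595783-61596082 on the minus strand, and are written 5′ to 3′ on the strand of the gene. They share 98.0% of their alignment, and capitals mark the 6 alignment columns in which they differ.
Mup15: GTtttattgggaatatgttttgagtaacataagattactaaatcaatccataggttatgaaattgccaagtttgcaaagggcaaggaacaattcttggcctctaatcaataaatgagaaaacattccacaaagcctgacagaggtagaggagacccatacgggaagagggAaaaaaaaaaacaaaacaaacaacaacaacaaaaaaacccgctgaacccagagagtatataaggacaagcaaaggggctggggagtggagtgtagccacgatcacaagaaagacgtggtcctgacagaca
Mup17: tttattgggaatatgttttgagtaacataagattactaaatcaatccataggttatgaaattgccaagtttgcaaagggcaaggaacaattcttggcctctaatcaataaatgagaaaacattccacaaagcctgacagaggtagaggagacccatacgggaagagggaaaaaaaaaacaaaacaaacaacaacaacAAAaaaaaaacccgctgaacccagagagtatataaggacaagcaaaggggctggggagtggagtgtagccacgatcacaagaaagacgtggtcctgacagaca
Among the 12 tested Mup genes with a RefSeq window, the median identity of 1 promoter to the others ran from 39.6% for Mup7 to 91.2% for Mup17. Their transcripts are closer still, with 99.0 to 99.7% identity to the nearest relative for 15 of 18 genes and 91.2% for Mup20, the most distant. How reads that align to several Mup genes were counted was not stated, so values of single members are uncertain.

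Mup7 was read at 1353, 754, 1319 and 1252 RPKM in young control and 66.4, 4.45, 148 and 36 RPKM in old MANF livers, a log2 of -5.06 (adjusted p = 0.016), and old MANF replicate 2 was far below the other 3. Mup7 was not called without young control replicate 3 (adjusted p up to 0.0501). Mup11 went from 405 ± 98.8 to 24.6 ± 32.3 RPKM (mean ± SD, n = 4; log2 -4.93 ± 0.74, adjusted p = 0.0108). Mup18, Mup16, Mup1, Mup9, Mup14, Mup8 and Mup19 fell by 4.11, 4.10, 3.85, 3.30, 3.24, 3.06 and 2.72 on the log2 scale, each also in all 8 fits with 1 library left out. Mup12 fell from 40.2 ± 15.8 to 5.28 ± 4.46 RPKM (log2 -3.23 ± 0.62, adjusted p = 0.023). Mup12 was not called without old MANF replicate 4 or young control replicate 1, 3 or 4 (adjusted p up to 0.0675). Mup3, named here for its level after its values were seen, fell from 5136 ± 642 to 2486 ± 813 RPKM (log2 -1.20 ± 0.25, adjusted p = 0.0308). Mup3 was not called without old MANF replicate 4 or young control replicate 1, 3 or 4 (adjusted p up to 0.086) or with no filter (0.0736) or by quantile normalization (0.0635). Mup20, the male pheromone darcin, had 4926 ± 1385 RPKM in young control and 3165 ± 477 RPKM in old MANF livers (log2 -0.70 ± 0.24, adjusted p = 0.112), and Mup21 had 251 ± 31 RPKM and 150 ± 64.1 RPKM (log2 -0.92 ± 0.27, adjusted p = 0.0823); neither passed the test.

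Other genes that are higher in male than in female mouse liver fell as well. Of the 17 male-biased genes listed and tested, 9 fell and 0 rose, and the median log2 was -1.26. The 9 included Moxd1, which entered through young control libraries alone. In the fit on all 16 libraries, old MANF livers had 9 falls and old control livers 5 against young control. The old control median was -0.78. The glucuronosyltransferase Ugt2b38 (chr5:87409942-87424203, minus strand) was read at 17.2, 21.3, 30.6 and 20.3 RPKM in young control livers. Ugt2b38 in old MANF livers was at 2.16, 0.88, 0.693 and 1.11 RPKM (log2 -3.87 ± 0.27, adjusted p = 0.000383). The steroid hydroxylase Cyp2d9 (chr15:82433437-82456845, plus strand) was read at 718, 787, 908 and 768 RPKM in young control livers. Cyp2d9 in old MANF livers was at 387, 338, 337 and 263 RPKM (log2 -1.37 ± 0.14, adjusted p = 0.0026). Neither gene overlapped between the groups, and the 4 old MANF values of Cyp2d9 also lay below all old control values, which were 444, 900, 595 and 562 RPKM (log2 -0.93, adjusted p = 0.104 between the old groups). The glutathione transferase Gstp1 fell from 1330 ± 52.6 to 553 ± 84.4 RPKM (log2 -1.37 ± 0.12, adjusted p = 0.00106). Moxd1, which codes for a copper-dependent monooxygenase of the ER, was read at 4.4, 13.2, 8.86 and 21.5 RPKM in young control and 0.0, 0.0459, 0.0512 and 0.0146 RPKM in old MANF livers. Old MANF replicate 1 had no read of Moxd1 and all 4 were near 0, while young control livers spread from 4.4 to 21.5 (log2 -4.46 ± 0.39). It entered the test through young control libraries alone, so that a fall was built into its entry, and old control livers had 0.0295 ± 0.0303 RPKM. Cyp7b1, an oxysterol hydroxylase that appears again among the bile acid genes, fell from 141 ± 34.7 to 48.4 ± 22.3 RPKM (log2 -1.70 ± 0.32, adjusted p = 0.0211). Cyp7b1 was not called without old MANF replicate 4 or young control replicate 1, 3 or 4 (adjusted p up to 0.0615). The serpin Serpina3k, a secreted protease inhibitor, fell from 3919 ± 256 to 2047 ± 306 RPKM (log2 -1.04 ± 0.15, adjusted p = 0.00934).

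Among genes that are higher in female liver, 3 rose and 0 fell. Of 20 listed, 6 reached the minimum, 2 of these, Cyp2a4 and Slc22a27, through old MANF libraries alone, so that a rise was built into their entry and their values are a description. Cyp2a4, a steroid hydroxylase, was read at 0.127, 0.251, 0.0446 and 0.0286 RPKM in young control and 3.46, 7.74, 9.74 and 2.38 RPKM in old MANF livers, and old control livers had 4, 0.414, 0.162 and 1.17 RPKM. All old MANF values of Cyp2a4 exceeded all young control values, and 1 old control liver lay within the old MANF range (log2 3.10 ± 0.35). Slc22a27, an organic anion transporter, was read at 0.123, 0.329, 0.036 and 0.0693 RPKM in young control livers. Slc22a27 in old MANF livers was at 1.86, 1.66, 1.6 and 1.19 RPKM (log2 1.61 ± 0.14). Abcd2, which imports very long chain fatty acids into peroxisomes, was read at 1.06, 2.71, 1.37 and 1.34 RPKM in young control livers. Abcd2 in old MANF livers was at 4.35, 8.04, 4.86 and 6.82 RPKM (log2 1.54 ± 0.25, adjusted p = 0.013). Abcd2 rose in all 8 fits with 1 library left out, and for none of the 3 genes was the difference between old MANF and old control called (adjusted p = 0.132, 0.104 and 0.19). Of the 16 tested genes of the growth hormone and IGF1 axis 0 were called, with a median log2 of -0.11; at an unadjusted p under 0.05 there were 1 higher and 2 lower, and voom called 0. Igf1 had 52.2 ± 3.92 RPKM in young control and 41.9 ± 5.67 RPKM in old MANF livers (log2 -0.42 ± 0.12, adjusted p = 0.0692), and Stat5b, the transcription factor that carries the growth hormone signal in liver, 5.43 ± 0.158 RPKM and 7.21 ± 0.421 RPKM (log2 0.28 ± 0.079, adjusted p = 0.0718).

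**Figure D2:**
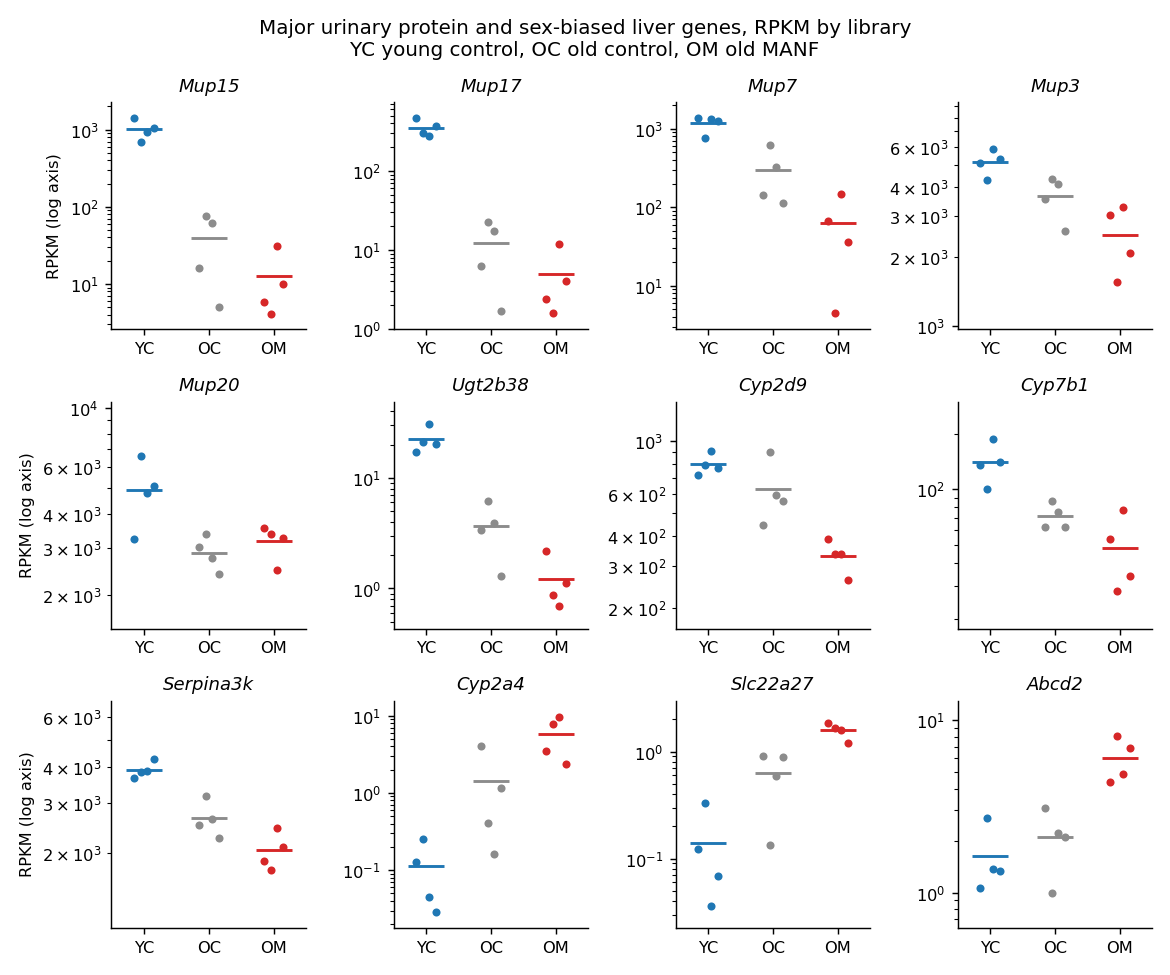
RPKM (log axis) of 12 genes in each of the 4 young control (YC), old control (OC) and old MANF (OM) livers, 1 point per library with a bar at the group mean. Mup15 and Mup17 lie far below young control in both old groups, Cyp2d9 is lowest in old MANF livers, and Cyp2a4, Slc22a27 and Abcd2 are highest there, while Mup20 overlaps between young control and old MANF.

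The iodothyronine deiodinase Dio1, which converts the thyroid prohormone to its active form in liver, fell in steps from young control to old control to old MANF livers. Dio1 (chr4:107291465-107307169, minus strand) was read at 73.2, 79, 74.6 and 70.5 RPKM in young control and 15.3, 10.8, 16.5 and 11 RPKM in old MANF livers, and at 39.3, 28.3, 39.3 and 34.9 RPKM in old control livers. The 3 groups did not overlap and old control livers lay between the others. Old MANF was 0.171 times young control (log2 -2.55 ± 0.14, adjusted p = 7.55e-05), with a log2 of -1.11 for old control against young control (adjusted p = 0.00254) and of -1.44 for old MANF against old control (adjusted p = 0.000699). Dio1 was the only called member of 16 tested genes of retinoid and thyroid hormone response. Rarres1, a retinoid-induced gene, had the smallest p of all genes and was named after its values were seen. It was read at 44.6, 37.7, 43 and 38.6 RPKM in young control and 12.4, 12.7, 11 and 11.8 RPKM in old MANF livers, and at 19.7, 26.6, 16 and 29 RPKM in old control livers; old control livers again lay between groups that did not overlap (log2 -1.83 ± 0.083, adjusted p = 2.58e-05; old MANF against old control log2 -0.92, adjusted p = 0.069).

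Part of the bile acid synthesis list fell, including its rate-limiting step. Of 14 tested genes 3 fell and 0 rose, beside 2.21% of all genes called lower, with a median log2 of -0.25, and the other 11 did not pass. Cyp8b1 (chr9:121914356-121916305, minus strand), an enzyme needed for making cholic acid, was read at 116, 125, 170 and 131 RPKM in young control livers. Cyp8b1 in old MANF livers was at 46.9, 35.5, 19.3 and 45.2 RPKM (log2 -2.03 ± 0.28, adjusted p = 0.00725). Cyp7a1 (chr4:6265612-6275633, minus strand), the rate-limiting enzyme of the classic pathway, was read at 53.4, 48, 57.1 and 52.6 RPKM in young control livers. Cyp7a1 in old MANF livers was at 23.6, 16.2, 7.74 and 32.3 RPKM (log2 -1.65 ± 0.36, adjusted p = 0.0355). Old MANF replicate 3 was lowest for both genes, and no old MANF value reached the young control range. Cyp7a1 was not called without old MANF replicate 1 or 2 or young control replicate 1, 2, 3 or 4 (adjusted p up to 0.0931) or on all 16 libraries (0.0846). Old control livers had 43.4 ± 9.28 RPKM of Cyp7a1 and 85.7 ± 37.8 RPKM of Cyp8b1, and neither gene was called between old MANF and old control (adjusted p = 0.367 and 0.116). Among 13 tested genes of bile acid transport and of the bile acid receptor FXR 0 were called (unadjusted 2 higher and 3 lower, voom 0). The bile salt export pump Abcb11 had 44.7 ± 7.18 RPKM in young control and 69.8 ± 10.6 RPKM in old MANF livers (log2 0.54 ± 0.15, adjusted p = 0.0624). In old control livers Abcb11 had 47.8 ± 4.42 RPKM, and in young MANF livers, from mice of 5 months with the MANF plasmid, 67.7 ± 5.92 RPKM. The phospholipid exporter Abcb4 had 20.7 ± 0.446 RPKM in young control and 18.3 ± 2.34 RPKM in old MANF livers (log2 -0.28 ± 0.093, adjusted p = 0.114).

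Drug-metabolizing enzymes changed in both directions. Of 38 tested P450 and glucuronosyltransferase genes 5 rose and 2 fell, beside 3.22% of all genes called higher and 2.21% called lower. Their median log2 was -0.14. Ugt2b37 was read at 8.64, 6.59, 4.34 and 4.09 RPKM in young control and 0.315, 0.284, 0.807 and 0.344 RPKM in old MANF livers (log2 -2.85 ± 0.22), and at 0.48, 0.431, 0.57 and 0.191 RPKM in old control livers. Among old MANF livers only replicate 3 reached 0.5 RPKM. Ugt2b37, 1 of the 2 falls counted, thus owed its entry to young control libraries, and a fall was built in. Ugt2b5 fell from 377 ± 40.0 to 235 ± 57.3 RPKM (log2 -0.80 ± 0.16, adjusted p = 0.0262). Ugt2b5 was not called without old MANF replicate 4 or young control replicate 1, 3 or 4 (adjusted p up to 0.0749). Cyp2c55 rose from 0.91 ± 0.116 to 3.45 ± 1.41 RPKM (log2 1.32 ± 0.22, adjusted p = 0.0148) against 0.964 ± 0.406 RPKM in old control livers, and was called between old MANF and old control too, in the fit with 16 libraries (log2 1.35, adjusted p = 0.047). Cyp4a14, a fatty acid hydroxylase under control of the receptor PPAR-alpha, was read at 40.5, 25.7, 17.7 and 8.62 RPKM in young control livers. Cyp4a14 in old MANF livers was at 67.2, 80.1, 169 and 69.8 RPKM (log2 2.03 ± 0.43, adjusted p = 0.0311), with old MANF replicate 3 above the other 3. Cyp4a14 was not called without old MANF replicate 1 or 4 or young control replicate 3 or 4 (adjusted p up to 0.0824) or on all 16 libraries (0.229). Its old control values spread from 4.48 to 170 RPKM.

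Glutathione transferases Gstm2, Gstm3 and Gstm6 of the mu class rose. Of 26 tested genes of glutathione and oxidant defence 4 rose and 0 fell, beside 3.22% of all genes called higher, with a median log2 of 0.37. The count was 1 to 9 with 1 library left out (1 without old MANF replicate 4 or young control replicate 3 or 4, 2 without old MANF replicate 1 or 2 or young control replicate 1, 9 without old MANF replicate 3). Gstm3 was read at 14.9, 16.2, 9.94 and 14.6 RPKM in young control livers. Gstm3 in old MANF livers was at 35.5, 128, 30.5 and 48.1 RPKM (log2 1.76 ± 0.38, adjusted p = 0.0344), with old MANF replicate 2 above the other 3. Gstm3 was not called without old MANF replicate 4 or young control replicate 1, 2, 3 or 4 (adjusted p up to 0.0926). Gstm2 rose from 13.4 ± 2.99 to 25.6 ± 3.6 RPKM (log2 0.82 ± 0.15, adjusted p = 0.0191). Gstm2 was not called without young control replicate 1 (adjusted p up to 0.0521) or on all 16 libraries (0.0526). Gstm6 rose from 23.2 ± 1.65 to 35.1 ± 3.99 RPKM (log2 0.48 ± 0.10, adjusted p = 0.0309). Gstm6 was not called without old MANF replicate 1, 2 or 4 or young control replicate 1, 2, 3 or 4 (adjusted p up to 0.0876) or on all 16 libraries (0.0658). Heme oxygenase Hmox1, which degrades heme, rose from 5.77 ± 1.68 to 11.5 ± 2.41 RPKM (log2 0.85 ± 0.18, adjusted p = 0.0309). Hmox1 was not called without old MANF replicate 1, 2 or 4 or young control replicate 3 or 4 (adjusted p up to 0.0854) or on all 16 libraries (0.348); old control replicate 4 alone reached 42.7 RPKM, the other 3 old controls at most 6.78. The same list of heme and iron genes (23 tested, 1 higher and 1 lower, beside 3.22% and 2.21% of all genes) held a fall of Alas1, the rate-limiting enzyme of heme synthesis, from 132 ± 16.6 to 64.5 ± 25.7 RPKM (log2 -1.20 ± 0.28, adjusted p = 0.0409). Old control livers had 108 ± 16.9 RPKM of Alas1 and young MANF livers 71.7 ± 25.0 RPKM. Alas1 was not called without old MANF replicate 1 or 2 or young control replicate 1, 2, 3 or 4 (adjusted p up to 0.104) or with no filter (0.0541).

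Some genes of fatty acid synthesis rose in old MANF liver. Of 21 tested 3 rose and 0 fell (2 to 7 with 1 library left out: 7 without old MANF replicate 3), beside 3.22% of all genes called higher. The median log2 was 0.57, and 17 lay above 0. Acly (chr11:100476353-100528000, minus strand), which supplies acetyl-CoA in the cytosol, was read at 21, 26.3, 20.7 and 28.1 RPKM in young control livers. Acly in old MANF livers was at 59.6, 91.7, 60.2 and 61.8 RPKM (log2 1.38 ± 0.16, adjusted p = 0.00378). The carboxylase Acaca, which turns it into malonyl-CoA, was read at 2.93, 3.57, 3.59 and 4.42 RPKM in young control livers. Acaca in old MANF livers was at 7.68, 11.2, 6.65 and 7.12 RPKM (log2 0.96 ± 0.17, adjusted p = 0.0186). No value overlapped for either gene, and old control livers were at 55 ± 5.92 RPKM and 6.87 ± 1.29 RPKM, with a log2 of 1.14 (adjusted p = 0.00534) and 0.78 (adjusted p = 0.0521) against young control. Mlxipl, which codes for the carbohydrate-responsive factor ChREBP, rose from 26.2 ± 2.5 to 42.1 ± 5.97 RPKM (log2 0.57 ± 0.13, adjusted p = 0.0359). Mlxipl was not called without old MANF replicate 1, 2, 3 or 4 or young control replicate 1, 2, 3 or 4 (adjusted p up to 0.0784) or on all 16 libraries (0.0513). Gckr, the regulator of glucokinase and the 1 called member of 24 tested genes of glucose metabolism, rose from 31.6 ± 3.37 to 48.2 ± 5.86 RPKM (log2 0.51 ± 0.12, adjusted p = 0.0471). A share of 1 in 24 was near the 3.22% of all genes called higher. Gckr was not called without old MANF replicate 1, 2 or 4 or young control replicate 1, 2, 3 or 4 (adjusted p up to 0.116) or with a pseudocount of 0.1 (0.0526) or by voom (0.0507). Angptl8, a secreted inhibitor of lipoprotein lipase that follows feeding, was read at 6.05, 8.06, 12.2 and 6.61 RPKM in young control livers. Angptl8 in old MANF livers was at 33.7, 55.4, 38.6 and 17.2 RPKM (log2 1.91 ± 0.33, adjusted p = 0.0171). Angptl8 was not called without young control replicate 4 (adjusted p up to 0.0538).

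Uptake and breakdown of fat gave few calls. The fatty acid transporter Cd36 (chr5:17781690-17888801, minus strand) was read at 7.11, 8.74, 3.45 and 4.71 RPKM in young control and 18.8, 17.7, 17.8 and 19 RPKM in old MANF livers and at 19.1, 14.1, 16 and 19.7 RPKM in old control livers. Old MANF values lay within the range of old control values, and both groups lay above young control (log2 1.51 ± 0.21, adjusted p = 0.0074; old MANF against old control log2 0.05, adjusted p = 0.972). Mgll, the lipase that finishes triglyceride breakdown, fell: young control livers had 27.9 ± 0.883 RPKM and old MANF livers 14.4 to 23.5 RPKM (log2 -0.58 ± 0.13, adjusted p = 0.0385). Mgll was not called without old MANF replicate 2 or 4 or young control replicate 1, 2, 3 or 4 (adjusted p up to 0.0996) or on all 16 libraries (0.0982) or with no filter (0.0601) or without scaling (0.0634). Of 18 tested genes of lipid droplets and uptake 1 rose and 1 fell, beside 3.22% of all genes called higher and 2.21% called lower. Of 26 tested genes of fatty acid oxidation 1 fell, a share near that of all genes. It was Slc25a20, the carnitine carrier of mitochondria, which went from 20.2 ± 0.388 to 15.8 ± 1.77 RPKM (log2 -0.45 ± 0.087, adjusted p = 0.0234). Slc25a20 was not called without old MANF replicate 4 or young control replicate 3 or 4 (adjusted p up to 0.068) or on all 16 libraries (0.0724). Of 24 tested genes of cholesterol synthesis 0 were called (unadjusted 3 higher and 1 lower, voom 0), with a median log2 of 0.14.

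**Figure D3:**
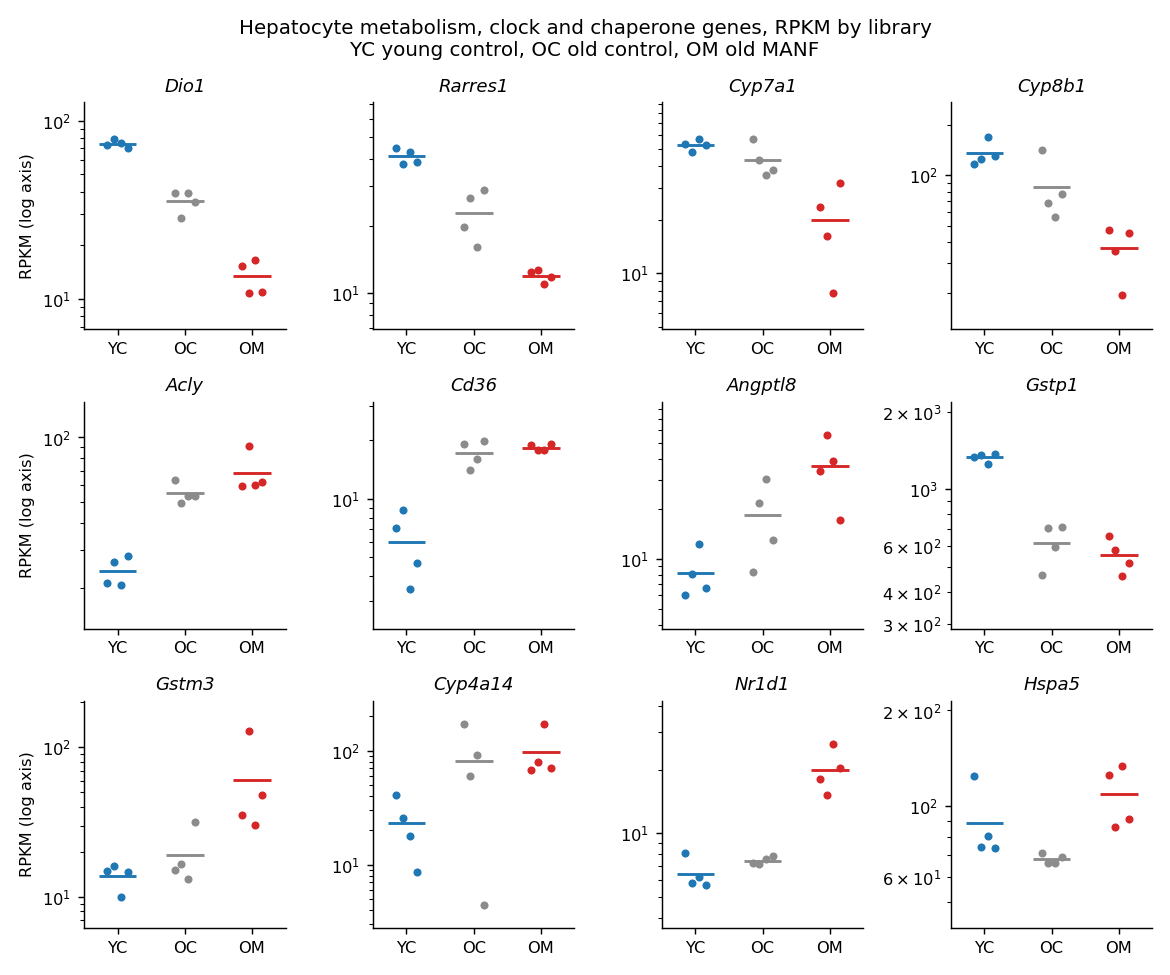
RPKM (log axis) of 12 metabolic, clock and chaperone genes in each of the 4 young control (YC), old control (OC) and old MANF (OM) livers, 1 point per library with a bar at the group mean. Dio1 and Rarres1 step down from young control through old control to old MANF, Cd36 overlaps between both old groups, and Nr1d1 is high in old MANF livers among these groups, at 15.2 to 26.4 RPKM.

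In the circadian clock list 2 of 17 tested genes rose and 0 fell, beside 3.22% of all genes called higher, with a median log2 of 0.10. Nr1d1 (chr11:98767932-98775333, minus strand), which codes for the repressor REV-ERB-alpha, was read at 8.08, 5.81, 6.2 and 5.73 RPKM in young control and 18.1, 15.2, 26.4 and 20.3 RPKM in old MANF livers and at 7.25, 7.17, 7.54 and 7.79 RPKM in old control livers. All old MANF livers exceeded all young control and old control livers (log2 1.45 ± 0.17, adjusted p = 0.00347; old MANF against old control log2 1.29, adjusted p = 0.00641). Young MANF livers, from mice of 5 months with the MANF plasmid, had 15 to 24.4 RPKM and overlapped with old MANF livers. Noct, a rhythmic phosphatase, was read at 7.37, 5.99, 4.99 and 2.3 RPKM in young control livers. Noct in old MANF livers was at 23.4, 33.6, 12.2 and 54.5 RPKM (log2 2.28 ± 0.44, adjusted p = 0.0234), with old MANF replicate 4 highest. Noct was not called without old MANF replicate 4 or young control replicate 3 or 4 (adjusted p up to 0.062). The time of day of collection was not stated, and whether it differed between groups was not tested. Rgs16, a regulator of G protein signalling, was read at 2.54, 6.48, 27.5 and 4.89 RPKM in young control and 49.3, 110, 31.8 and 78.5 RPKM in old MANF livers; young control replicate 3 came near the lowest old MANF value, and old control livers were at 68.2, 55.3, 77.9 and 47.6 RPKM (log2 2.93 ± 0.65, adjusted p = 0.0359). Rgs16 was not called without old MANF replicate 1, 2 or 4 or young control replicate 1, 2 or 4 (adjusted p up to 0.0938). Within the promoter windows, the E-box CACGTG lay on either strand in 4 of 14 tested clock genes with a window, against 7.24% of all 27025 promoters and 10.7% of tested genes with a window. The D-box TTANNTAA lay in 2 of 14, against 6.08% and 3.5%; neither lay in the windows of Nr1d1 and Noct.

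Mouse Manf itself (chr9:106838312-106891979, minus strand) was read at 14.4, 8.64, 8.95 and 8.57 RPKM in young control and 17.4, 11.2, 17.8 and 11.5 RPKM in old MANF livers, and at 5.99, 5.95, 6.87 and 8.26 RPKM in old control livers. Young control replicate 1 lay within the old MANF range and the other 3 young controls below it, and the difference was not called (log2 0.40 ± 0.19, adjusted p = 0.264). Reads of the human plasmid counted at the mouse gene and reads of the mouse gene cannot be told apart here. Its paralog Cdnf was at 0.0872 to 0.224 RPKM in young control and 0.103 to 0.158 RPKM in old MANF livers, under the minimum for testing. Of 29 tested genes of ER chaperones and the unfolded protein response 2 rose and 0 fell, beside 3.22% of all genes called higher. Their median log2 was 0.14, and -0.077 for old control against young control. Ern1, which codes for the stress sensor IRE1-alpha, rose from 5.21 ± 0.423 to 8.74 ± 1.08 RPKM (log2 0.59 ± 0.12, adjusted p = 0.0245). Ern1 was not called without old MANF replicate 1 or 4 or young control replicate 1 or 4 (adjusted p up to 0.0699) or on all 16 libraries (0.136). Sdf2l1, a cofactor of BiP, rose from 7.06 ± 0.98 to 11 ± 1.72 RPKM (log2 0.51 ± 0.12, adjusted p = 0.0406). Sdf2l1 was not called without old MANF replicate 1, 2 or 3 or young control replicate 1, 2, 3 or 4 (adjusted p up to 0.098) or on all 16 libraries (0.167). BiP itself, Hspa5, named after its values were seen, was read at 124, 74.6, 80.8 and 73.9 RPKM in young control and 125, 85.7, 134 and 91.2 RPKM in old MANF livers, where young control replicate 1 lay close to the upper old MANF livers (log2 0.21 ± 0.19, adjusted p = 0.554). Of 17 tested heat shock genes 1 rose, beside 3.22% of all genes. It was the co-chaperone Stip1, which went from 14.3 ± 2.39 to 20.9 ± 1.1 RPKM (log2 0.45 ± 0.099, adjusted p = 0.0355). Stip1 was not called without old MANF replicate 1 or 4 or young control replicate 2, 3 or 4 (adjusted p up to 0.0914) or on all 16 libraries (0.0525). Of 14 tested genes of the integrated stress response 1 fell, beside 2.21% of all genes. It was the transcription factor Cebpb, which went from 10.3 ± 1.43 to 6.39 ± 1.73 RPKM (log2 -0.78 ± 0.18, adjusted p = 0.0406). Cebpb was not called without old MANF replicate 1 or 3 or young control replicate 1, 2, 3 or 4 (adjusted p up to 0.103) or with no filter (0.0587).

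Interferon-stimulated genes, which restrict viruses inside cells, were higher in old MANF liver. Of 33 tested 14 rose and 0 fell, the median log2 was 0.93, and 33 lay above 0; 1 entered through old MANF libraries alone. The count was 6 to 21 with 1 library left out (6 without old MANF replicate 4, 7 without young control replicate 1, 3 or 4, 9 without old MANF replicate 1), 13 without young control replicate 2, 22 without scaling and 10 on all 16 libraries. Old control livers had 3 rises against young control in the fit on all 16 libraries, beside the 10 of old MANF livers in that fit, and a median of 0.61. The list median of single livers, relative to the young control mean, was 0.64, 1.41, 0.40 and 1.04 in old MANF livers and 0.54, 0.44, 0.18 and 1.53 in old control livers. In bulk tissue, more cells of a type and more RNA per cell cannot be told apart.

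The Oas1a gene, which codes for a sensor of double-stranded RNA, was read at 0.607, 1.19, 0.823 and 1.21 RPKM in young control livers. Oas1a in old MANF livers was at 4.58, 10.2, 2.87 and 8.47 RPKM (log2 2.06 ± 0.34, adjusted p = 0.0148). Ifi27 (chr12:103434211-103440239, plus strand), an interferon-induced membrane protein, was read at 36.5, 49.7, 36.9 and 49.1 RPKM in young control and 139, 169, 110 and 192 RPKM in old MANF livers, and at 107, 110, 63.7 and 130 RPKM in old control livers. All old MANF values of both genes lay above young control, and old control values reached into the old MANF range (log2 1.70 ± 0.19, adjusted p = 0.00331 for Ifi27). Its relative Ifi27l2b rose from 6.03 ± 2.67 to 34.8 ± 16.1 RPKM (log2 2.33 ± 0.37, adjusted p = 0.0134). For Rtp4, which codes for a transport protein of receptors, the rise was from 3.76 ± 0.493 to 10.5 ± 2.09 RPKM (log2 1.25 ± 0.15, adjusted p = 0.00389). Irf9, the DNA-binding part of the interferon-activated complex ISGF3, was read at 4.23, 4.03, 3.97 and 3.85 RPKM in young control livers. Irf9 in old MANF livers was at 7.06, 8.17, 5.87 and 7.79 RPKM (log2 0.67 ± 0.10, adjusted p = 0.0108), with a log2 of 0.69 for old control against young control (adjusted p = 0.00704). These 5 genes rose in all 8 fits with 1 library left out.

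Genes that answer to interferon gamma rose too. Of 14 tested 8 rose and 0 fell, with a median log2 of 0.89. The count was 5 to 13 with 1 library left out (5 without old MANF replicate 4, 13 without old MANF replicate 3) and 9 without young control replicate 2. On all 16 libraries 0 were called, and 12 on 14 libraries without old control replicate 4 and young MANF replicate 3; old control replicate 4 had 125 RPKM of Igtp, against 12.2 to 23.6 RPKM in the other old controls. The list median of single livers was 0.86, 1.38, 0.49 and 0.79 in old MANF livers and 0.41, 0.12, 0.55 and 2.86 in old control livers. The immunity-related GTPase Igtp (chr11:58199556-58207591, plus strand) was read at 10.3, 11.5, 8.63 and 9.93 RPKM in young control livers. Igtp in old MANF livers was at 26, 37.7, 20.3 and 19.9 RPKM (log2 1.18 ± 0.18, adjusted p = 0.0108; not called on all 16 libraries, adjusted p = 0.169). Gbp10, a guanylate-binding protein, was read at 0.489, 0.802, 0.571 and 0.462 RPKM in young control livers. Gbp10 in old MANF livers was at 3.21, 4.72, 1.71 and 3.23 RPKM (log2 1.63 ± 0.23, adjusted p = 0.0078; not called on all 16 libraries, adjusted p = 0.0773). Neither gene overlapped between young control and old MANF livers. Irf1, the transcription factor that relays the signal, rose from 4.84 ± 0.774 to 9.98 ± 1.7 RPKM (log2 0.87 ± 0.13, adjusted p = 0.0108; not called on all 16 libraries, adjusted p = 0.138) and Irgm2 from 6.05 ± 0.986 to 13.3 ± 2.88 RPKM (log2 0.97 ± 0.15, adjusted p = 0.0122; not called on all 16 libraries, adjusted p = 0.115).

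Promoters of these genes are shown because the genes rose together and their windows hold a shared motif. The motif searched was an interferon response element, GAAA followed by any 2 bases and a further GAAA, on either strand and with overlapping matches counted. It lay in 3.49% of all 27025 RefSeq promoters (943) and in 3.13% of the 8154 tested genes with a window, in 12 of 21 tested interferon-stimulated genes with a window (57.1%) and in 7 of 9 tested interferon gamma genes (77.8%). Among the genes that rose it lay in 3 of 7 and 5 of 6. The windows are Igtp chr11:58199306-58199605 on the plus strand, Irgm1 chr11:48871371-48871670 on the minus strand, Gbp3 chr3:142559794-142560093 on the plus strand, Oas1a chr5:120907476-120907775 on the minus strand and Trim30a chr7:104465144-104465443 on the minus strand (RefSeq, GRCm38.p6). They are written 5′ to 3′ on the strand of the gene, and capitals mark the matches, which read TTTC, any 2 bases and TTTC where the motif lies on the other strand.
Igtp: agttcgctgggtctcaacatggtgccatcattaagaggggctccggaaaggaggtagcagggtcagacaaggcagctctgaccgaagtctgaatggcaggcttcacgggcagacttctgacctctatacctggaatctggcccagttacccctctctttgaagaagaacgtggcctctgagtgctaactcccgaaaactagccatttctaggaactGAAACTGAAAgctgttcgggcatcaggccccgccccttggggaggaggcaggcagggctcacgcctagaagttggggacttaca
Irgm1: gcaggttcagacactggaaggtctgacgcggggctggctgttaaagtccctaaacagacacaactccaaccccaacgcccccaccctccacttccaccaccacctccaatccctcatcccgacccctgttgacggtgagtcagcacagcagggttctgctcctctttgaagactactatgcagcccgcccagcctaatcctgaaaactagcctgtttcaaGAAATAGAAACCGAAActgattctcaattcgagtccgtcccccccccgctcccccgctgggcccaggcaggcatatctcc
Gbp3: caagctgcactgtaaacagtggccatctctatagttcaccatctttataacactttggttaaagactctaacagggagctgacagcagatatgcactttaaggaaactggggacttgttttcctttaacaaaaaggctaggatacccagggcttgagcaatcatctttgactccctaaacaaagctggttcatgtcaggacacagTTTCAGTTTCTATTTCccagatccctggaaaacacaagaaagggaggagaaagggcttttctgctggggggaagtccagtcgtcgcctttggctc
Oas1a: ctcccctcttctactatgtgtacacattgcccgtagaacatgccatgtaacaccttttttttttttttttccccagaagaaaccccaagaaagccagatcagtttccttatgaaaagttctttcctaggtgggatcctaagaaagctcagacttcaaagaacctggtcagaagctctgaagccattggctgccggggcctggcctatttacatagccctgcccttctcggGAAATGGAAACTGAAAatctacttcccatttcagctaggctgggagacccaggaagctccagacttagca
Trim30a: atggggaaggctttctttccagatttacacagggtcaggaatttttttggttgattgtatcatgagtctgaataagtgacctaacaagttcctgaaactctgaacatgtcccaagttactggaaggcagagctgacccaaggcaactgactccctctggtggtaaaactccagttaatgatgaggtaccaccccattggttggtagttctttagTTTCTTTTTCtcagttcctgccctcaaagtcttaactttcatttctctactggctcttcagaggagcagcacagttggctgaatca
Irgm1, Gbp3 and Trim30a were chosen for their windows after their values were seen. They rose from 6.14 ± 0.445 to 11.2 ± 2.22 RPKM, 1.33 ± 0.201 to 5.2 ± 2.29 RPKM and 1.14 ± 0.24 to 3 ± 0.729 RPKM, log2 0.70, 1.46 and 0.99 (adjusted p = 0.0148, 0.0152 and 0.0148). Gbp3 was not called without old MANF replicate 4 (adjusted p up to 0.0502) or on all 16 libraries (0.0964). Irgm1 was not called on all 16 libraries (0.217). A match is a description of the letters and no evidence of binding.

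Antigen presentation by MHC class II, a property of macrophages, dendritic cells and B cells, had the highest median of all lists. Of 9 tested genes 7 rose and 0 fell, with a median log2 of 1.56. The count was 1 to 9 with 1 library left out (1 without old MANF replicate 1 or 4 or young control replicate 1, 3 or 4), with 9 also without young control replicate 2, 0 on all 16 libraries and 9 on the 14 libraries. The list median of single livers was 1.73, 1.62, 1.24 and 1.52 in old MANF livers and 0.57, 0.14, 0.68 and 3.88 in old control livers. Cd74, the invariant chain, was read at 19.3, 57.9, 19.2 and 17.3 RPKM in young control and 118, 84.4, 75.8 and 77.7 RPKM in old MANF livers, and at 40.3, 28.2, 45.9 and 653 RPKM in old control livers. H2-Aa (chr17:34282744-34287823, minus strand) was read at 10.6, 28.3, 10.1 and 8.91 RPKM in young control livers. H2-Aa in old MANF livers was at 60.3, 48.2, 33.3 and 39.6 RPKM (log2 1.65 ± 0.33, adjusted p = 0.0272). Young control replicate 2 was above the other young controls for both genes and still below each old MANF liver; old control replicate 4 was far above every other liver (log2 1.71 ± 0.34, adjusted p = 0.0281 for Cd74). Cd74 was not called without old MANF replicate 1 or 4 or young control replicate 1, 3 or 4 (adjusted p up to 0.0795) or on all 16 libraries (0.203). H2-Aa was not called without old MANF replicate 1 or 4 or young control replicate 1, 3 or 4 (adjusted p up to 0.0782) or on all 16 libraries (0.199). H2-Eb1 rose from 15.1 ± 10.1 to 52.3 ± 13.3 RPKM (log2 1.81 ± 0.35, adjusted p = 0.0233). H2-Eb1 was not called without old MANF replicate 1 or 4 or young control replicate 1, 3 or 4 (adjusted p up to 0.068) or on all 16 libraries (0.179). Cathepsin S, Ctss, which trims the invariant chain, was read at 11.5, 24.5, 11.2 and 9.92 RPKM in young control livers. Ctss in old MANF livers was at 48.5, 37.9, 44.5 and 42.3 RPKM (log2 1.56 ± 0.24, adjusted p = 0.0117) and rose in all 8 fits with 1 library left out, but was not called on all 16 libraries, adjusted p = 0.0783. Of 18 tested genes of MHC class I 1 rose, beside 3.22% of all genes. It was H2-T23, which went from 35.8 ± 4.5 to 65.1 ± 12 RPKM (log2 0.75 ± 0.14, adjusted p = 0.0233). H2-T23 was not called without old MANF replicate 1 or 4 or young control replicate 1, 3 or 4 (adjusted p up to 0.068) or on all 16 libraries (0.0814).

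**Figure D4:**
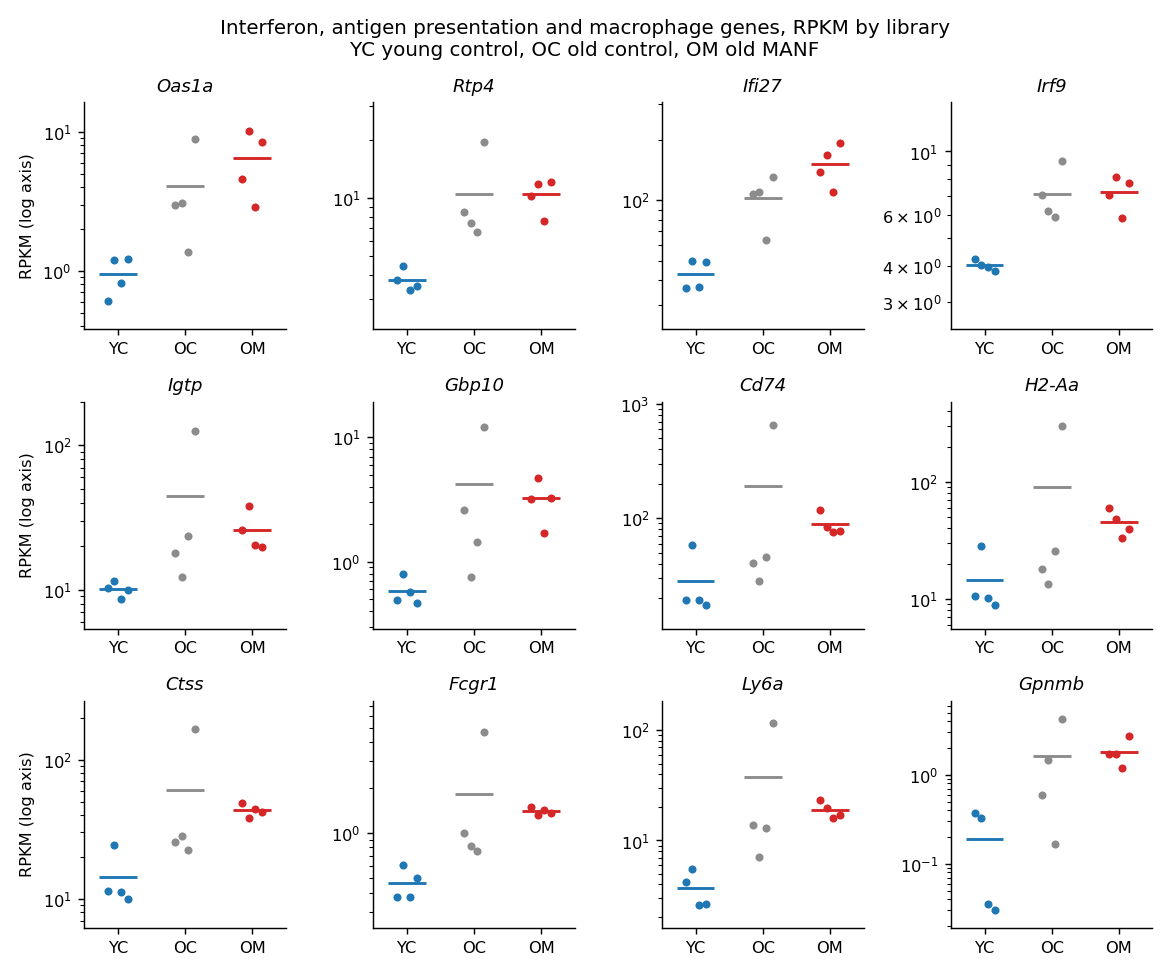
RPKM (log axis) of 12 interferon, antigen presentation and macrophage genes in each of the 4 young control (YC), old control (OC) and old MANF (OM) livers, 1 point per library with a bar at the group mean. The 4 old MANF livers lie above the 4 young control livers for each gene, and old control replicate 4 is the highest of these livers for 10 of the 12, such as Cd74 at 653 RPKM.

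Markers of immune cells moved with these lists, and their part in the results was not tested. Markers of recruited macrophages and monocytes summed to 14.4 to 42.6 RPKM in young control, 56.1 to 103 RPKM in old MANF and 40.5 to 396 RPKM in old control livers, with Ly6c2 under 0.5 RPKM in all 8. Most of each sum was Lyz2. Lyz2 reached 41.6 RPKM in young control and 386 RPKM in old control livers, and lay at 52.8 to 99.6 RPKM in old MANF livers. The sums thus describe mainly Lyz2 and not the markers as a panel. Of 11 tested genes of recruited macrophages and monocytes 4 rose and 0 fell, beside 3.22% of all genes called higher. On all 16 libraries 1 rose. The 4 include Fcgr1 and Gpnmb, whose rises were built into their entry. Fcgr1, a high-affinity antibody receptor, was read at 0.374, 0.61, 0.374 and 0.499 RPKM in young control livers. Only replicate 2 of these reached 0.5 RPKM, so Fcgr1 owed its entry to old MANF libraries and a rise was built in. Fcgr1 in old MANF livers was at 1.49, 1.32, 1.43 and 1.35 RPKM (log2 0.89 ± 0.11, not called on all 16 libraries), and these values are a description. Gpnmb, a glycoprotein of lipid-laden macrophages, was read at 0.372, 0.326, 0.0357 and 0.0305 RPKM in young control livers. Gpnmb in old MANF livers was at 1.7, 1.7, 1.18 and 2.73 RPKM (log2 1.66 ± 0.22); it entered the test through old MANF libraries alone, so that its rise was built into its entry. Plac8 rose from 3.04 ± 1.07 to 7.23 ± 1.15 RPKM (log2 1.07 ± 0.18, adjusted p = 0.0151). Plac8 was called in all 8 fits with 1 library left out, but not on all 16 libraries (adjusted p = 0.166). Lysozyme, Lyz2, rose from 24.2 ± 12.5 to 72.7 ± 19.6 RPKM (log2 1.56 ± 0.31, adjusted p = 0.0258). Lyz2 was not called without old MANF replicate 1 or 4 or young control replicate 1, 3 or 4 (adjusted p up to 0.0757) or on all 16 libraries (0.143). Ly6a, a surface antigen of endothelium and lymphocytes, was read at 4.16, 5.56, 2.57 and 2.64 RPKM in young control livers. Ly6a in old MANF livers was at 23.3, 19.9, 15.9 and 16.9 RPKM (log2 2.15 ± 0.20, adjusted p = 0.00121; not called on all 16 libraries, adjusted p = 0.0521).

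Markers of resident Kupffer cells summed to 33.6 to 88.7 RPKM in young control, 62.2 to 147 RPKM in old MANF and 64.3 to 299 RPKM in old control livers, and 0 of the 6 defining markers were called. The defining marker Clec4f, named after its values were seen, was read at 10.2, 29.5, 20.7 and 16.5 RPKM in young control and 41, 18.9, 42.4 and 26.5 RPKM in old MANF livers, which overlapped (log2 0.66 ± 0.35, adjusted p = 0.307). In the wider Kupffer list 2 of 15 tested genes rose, both of complement component C1q, beside 3.22% of all genes called higher. C1qa went from 15.7 ± 9.05 to 40.8 ± 7.25 RPKM (log2 1.38 ± 0.31, adjusted p = 0.0359). C1qa was not called without old MANF replicate 1, 2, 3 or 4 or young control replicate 1, 3 or 4 (adjusted p up to 0.0942) or on all 16 libraries (0.126). C1qc went from 9.54 ± 4.93 to 23 ± 5.57 RPKM (log2 1.21 ± 0.29, adjusted p = 0.0477). C1qc was not called without old MANF replicate 1, 2, 3 or 4 or young control replicate 1, 3 or 4 (adjusted p up to 0.117) or on all 16 libraries (0.169) or with no filter (0.0528). T and NK cell markers summed to 0.537 to 2.7 RPKM in young control, 2.75 to 4.02 RPKM in old MANF and 2.71 to 9.87 RPKM in old control livers. Cd3e and Cd3g were under 0.5 RPKM in all 8 libraries of the comparison. Of 6 tested genes of 23 listed 2 rose, Ptprcap and Nkg7, beside 3.22% of all genes called higher, and the list median log2 was 0.60. Old control livers had a list median of 1.09 against young control, above that of old MANF livers. There Ptprcap rose by a log2 of 1.35 (adjusted p = 0.0266) and Nkg7 by 1.63 (adjusted p = 0.0401, limma on all 16 libraries). Ptprcap, a partner of the leukocyte phosphatase CD45, went from 0.276 ± 0.25 to 0.997 ± 0.144 RPKM (log2 0.90 ± 0.20). Among young control livers only replicate 2, at 0.647 RPKM, reached 0.5 RPKM. Ptprcap thus owed its entry to old MANF libraries and a rise was built in. Ptprcap was not called without old MANF replicate 1, 3 or 4 or young control replicate 1, 3 or 4 (adjusted p up to 0.0916) or on all 16 libraries (0.0739). Nkg7, of cytotoxic granules, went from 0.585 ± 0.463 to 1.81 ± 0.368 RPKM (log2 1.06 ± 0.26, adjusted p = 0.046). Nkg7 was not called without old MANF replicate 1, 3 or 4 or young control replicate 1, 3 or 4 (adjusted p up to 0.114) or on all 16 libraries (0.112) or with no filter (0.0529) or with a pseudocount of 0.1 (0.0507). B and plasma cell markers summed to 0.79 to 4.51 RPKM in young control, 3.8 to 7.39 RPKM in old MANF and 2.11 to 24.5 RPKM in old control livers. For old MANF against young control 0 of 5 tested genes were called (unadjusted 2 higher, voom 1). The antibody joining chain Jchain was read at 0.262, 3.03, 0.339 and 0.474 RPKM in young control livers. Jchain in old MANF livers was at 4.08, 2.47, 4.47 and 5.57 RPKM (log2 1.79 ± 0.46, adjusted p = 0.0541), and Cd79a had 0.381 ± 0.352 RPKM and 1.11 ± 0.595 RPKM (log2 0.78 ± 0.28, adjusted p = 0.133). For both genes only replicate 2 of the young control livers reached 0.5 RPKM, so both owed their entry to old MANF libraries. Without young control replicate 2, 4 genes rose in each of the lists of recruited macrophages and Kupffer cells, 5 of T and NK cells, 2 of B and plasma cells and 3 of MHC class I.

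Some chemokine and endothelium genes rose. Of 18 tested chemokine and cytokine genes 4 rose and 0 fell, beside 3.22% of all genes called higher. Without young control replicate 2 there were 2 rises, 2 among endothelium genes and 4 among stellate and matrix genes. Ccl9, a chemokine for myeloid cells, went from 10.7 ± 0.944 to 19.9 ± 4.39 RPKM (log2 0.75 ± 0.16, adjusted p = 0.0317). Ccl9 was not called without old MANF replicate 2 or 4 or young control replicate 1, 2, 3 or 4 (adjusted p up to 0.0876) or on all 16 libraries (0.0605). Cxcl1, which attracts neutrophils, rose from 2.23 ± 0.659 to 4.47 ± 0.913 RPKM (log2 0.79 ± 0.18, adjusted p = 0.0398). Cxcl1 was not called without old MANF replicate 1 or 4 or young control replicate 1, 2, 3 or 4 (adjusted p up to 0.0876) or on all 16 libraries (0.134). The chemokine Cxcl16 rose from 1.72 ± 0.568 to 3.53 ± 0.78 RPKM (log2 0.78 ± 0.18, adjusted p = 0.0418). Cxcl16 was not called without old MANF replicate 1, 2 or 4 or young control replicate 1, 3 or 4 (adjusted p up to 0.108) or on all 16 libraries (0.225) or with no filter (0.052). Tgfb1, a fibrogenic cytokine, rose from 0.55 ± 0.15 to 1.19 ± 0.248 RPKM (log2 0.59 ± 0.13, adjusted p = 0.0385). Tgfb1 was not called without old MANF replicate 1, 3 or 4 or young control replicate 1, 2, 3 or 4 (adjusted p up to 0.0996) or on all 16 libraries (0.196). Of 16 tested sinusoidal endothelium genes 3 rose, beside 3.22% of all genes called higher. The count was 0 to 8 with 1 library left out (0 without old MANF replicate 4 or young control replicate 1, 3 or 4, 1 without old MANF replicate 1, 8 without old MANF replicate 2). Defining endothelium markers summed to 13.3 to 18.1 RPKM in young control, 18.4 to 45.4 RPKM in old MANF and 27.9 to 40.3 RPKM in old control livers. Oit3, expressed in liver endothelium, was read at 2.6, 3.05, 2.21 and 2.73 RPKM in young control livers. Oit3 in old MANF livers was at 5.65, 4.28, 8.34 and 5.91 RPKM (log2 0.93 ± 0.17, adjusted p = 0.0212). Oit3 was not called without old MANF replicate 4 or young control replicate 1, 3 or 4 (adjusted p up to 0.0631). In old control livers it had 6.28 ± 0.817 RPKM (log2 1.06 against young control, adjusted p = 0.0227). Endoglin, Eng, rose from 5.08 ± 0.933 to 10.1 ± 2.72 RPKM (log2 0.80 ± 0.19, adjusted p = 0.0425). Eng was not called without old MANF replicate 1, 3 or 4 or young control replicate 1, 3 or 4 (adjusted p up to 0.102). The cadherin Cdh5 rose from 1.61 ± 0.257 to 3.57 ± 1.2 RPKM (log2 0.81 ± 0.19, adjusted p = 0.0428). Cdh5 was not called without old MANF replicate 1 or 4 or young control replicate 1, 2, 3 or 4 (adjusted p up to 0.107) or on all 16 libraries (0.0546) or with no filter (0.0517). Stellate markers summed to 51.5 to 87.9 RPKM in young control and 87 to 109 RPKM in old MANF livers, and of 26 tested stellate and matrix genes 1 was called higher, a share near the 3.22% of all genes, the proteoglycan Bgn, from 9.62 ± 2.08 to 16.5 ± 2.76 RPKM (log2 0.65 ± 0.16, adjusted p = 0.0474). Bgn was not called without old MANF replicate 1, 3 or 4 or young control replicate 1, 3 or 4 (adjusted p up to 0.119) or on all 16 libraries (0.0513) or by quantile normalization (0.0502). Raet1d, a ligand of the NK cell receptor NKG2D, was read at 4.28, 4.2, 2.96 and 3.41 RPKM in young control livers. Raet1d in old MANF livers was at 15.5, 24, 15.8 and 30.3 RPKM (log2 2.24 ± 0.21, adjusted p = 0.00121), and at 14.6, 31.8, 13.6 and 16.8 RPKM in old control livers; both old groups lay above young control and overlapped each other.

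Lysosomal genes rose in 5 of 24 tested with 0 falls, beside 3.22% of all genes called higher. Their median log2 was 0.054, which is near that of all genes. Beside Ctss, the sterol carrier Npc2 rose from 16.4 ± 2.66 to 26.6 ± 2.68 RPKM (log2 0.59 ± 0.12, adjusted p = 0.0285). Npc2 was not called without old MANF replicate 1, 2 or 4 or young control replicate 1, 3 or 4 (adjusted p up to 0.0792) or on all 16 libraries (0.0982). Cathepsin B, Ctsb, rose from 78.4 ± 11.5 to 111 ± 7.06 RPKM (log2 0.41 ± 0.10, adjusted p = 0.0459). Ctsb was not called without old MANF replicate 1, 3 or 4 or young control replicate 1, 3 or 4 (adjusted p up to 0.12) or on all 16 libraries (0.163) or by voom (0.0547). The hexosaminidase Hexa rose from 17.9 ± 3.02 to 26.5 ± 1.5 RPKM (log2 0.47 ± 0.11, adjusted p = 0.0458). Hexa was not called without old MANF replicate 1, 2, 3 or 4 or young control replicate 1, 3 or 4 (adjusted p up to 0.118) or on all 16 libraries (0.0807). The calls were 1 to 5 with 1 library left out (1 without old MANF replicate 1 or 4 or young control replicate 1, 3 or 4, 2 without old MANF replicate 2, 3 without old MANF replicate 3) and 0 on all 16 libraries. Of 36 tested genes of oxidative phosphorylation 2 fell and 0 rose, beside 2.21% of all genes called lower. Cox5a, a subunit of complex IV, fell from 51.9 ± 0.776 to 43.8 ± 1.89 RPKM (log2 -0.34 ± 0.075, adjusted p = 0.0359). Cox5a was not called without old MANF replicate 1, 2, 3 or 4 or young control replicate 1, 3 or 4 (adjusted p up to 0.104) or on all 16 libraries (0.0513) or without scaling (0.0738). Ndufb3, a subunit of complex I, fell from 40.1 ± 3.09 to 32.7 ± 3.77 RPKM (log2 -0.39 ± 0.089, adjusted p = 0.0389). Ndufb3 was not called without old MANF replicate 1, 2 or 4 or young control replicate 1, 2, 3 or 4 (adjusted p up to 0.0968) or on all 16 libraries (0.0663) or with no filter (0.065) or without scaling (0.118). Cbs, which starts the removal of sulfur from homocysteine and was the 1 called of 19 tested genes of sulfur metabolism, rose from 62.4 ± 15.1 to 107 ± 9.8 RPKM (log2 0.71 ± 0.17, adjusted p = 0.0497), just inside the threshold. That call is to be read beside the 3.22% of all genes called higher. Old control livers had 62.7 ± 9.95 RPKM of Cbs and young MANF livers 103 ± 18.6 RPKM. Cbs was not called without old MANF replicate 1, 2, 3 or 4 or young control replicate 1, 3 or 4 (adjusted p up to 0.125) or with a pseudocount of 0.1 (0.0535) or by voom (0.051).

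Secreted and zonal hepatocyte genes gave few calls, to be read beside the 2.21% of all genes called lower. Of 31 tested genes of complement and coagulation 2 fell, both of the membrane attack complex: C6 was read at 67.3, 79.9, 89.5 and 100 RPKM in young control livers. C6 in old MANF livers was at 51.2, 59.1, 47.6 and 55.6 RPKM (log2 -0.74 ± 0.15, adjusted p = 0.0285). C6 was not called without old MANF replicate 1 or 4 or young control replicate 3 or 4 (adjusted p up to 0.0795). C8b fell from 136 ± 16.5 to 93.7 ± 6.52 RPKM (log2 -0.62 ± 0.13, adjusted p = 0.0302). C8b was not called without old MANF replicate 1, 2 or 4 or young control replicate 3 or 4 (adjusted p up to 0.0822). In old control livers they were at 50.2 ± 6.79 RPKM and 97.4 ± 6.48 RPKM, with log2 -0.78 (adjusted p = 0.0156) and -0.52 (adjusted p = 0.0401) against young control. Of 25 tested acute phase genes Serpina3k was the 1 called, and of 22 apolipoproteins and plasma carriers 0 were called (unadjusted 2 higher and 1 lower, voom 0). Among 15 tested periportal genes 0 were called (unadjusted 1 higher, voom 0), with a median log2 of 0.012. The periportal cadherin Cdh1 had 6.7 ± 1.9 RPKM in young control, 1.62 ± 0.319 RPKM in old control and 4.83 ± 2.53 RPKM in old MANF livers; its fall in old control passed the test (log2 -1.78, adjusted p = 0.0108) and old MANF differed by -0.62 (adjusted p = 0.301) from young and by 1.16 (adjusted p = 0.139) from old control. Among 13 tested pericentral genes 0 were called (unadjusted 1 lower, voom 0), with a median log2 of -0.26; Cyp1a2 was read at 155, 112, 116 and 101 RPKM in young control and 119, 40.3, 116 and 48.4 RPKM in old MANF livers (log2 -0.82 ± 0.35, adjusted p = 0.195) and glutamine synthetase, Glul, at 168, 191, 150 and 161 RPKM in young control and 158, 81.6, 217 and 82.8 RPKM in old MANF livers (log2 -0.53 ± 0.29, adjusted p = 0.319). Old MANF replicates 2 and 4 were low for both pericentral genes and replicates 1 and 3 lay within or above the young control range. Of 16 tested genes of the p53 response 1 fell, the cell cycle inhibitor Cdkn2c, from 1.46 ± 0.249 to 0.857 ± 0.13 RPKM (log2 -0.62 ± 0.12, adjusted p = 0.0214). Cdkn2c was not called without old MANF replicate 1 or young control replicate 1 or 4 (adjusted p up to 0.0668). In the lists of cell cycle (15 tested), NAD metabolism (15), cholangiocytes (4) and tissue other than liver (1) 0 genes were called by limma or voom, with 1, 3, 0 and 0 at an unadjusted p under 0.05.

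**Figure D5:**
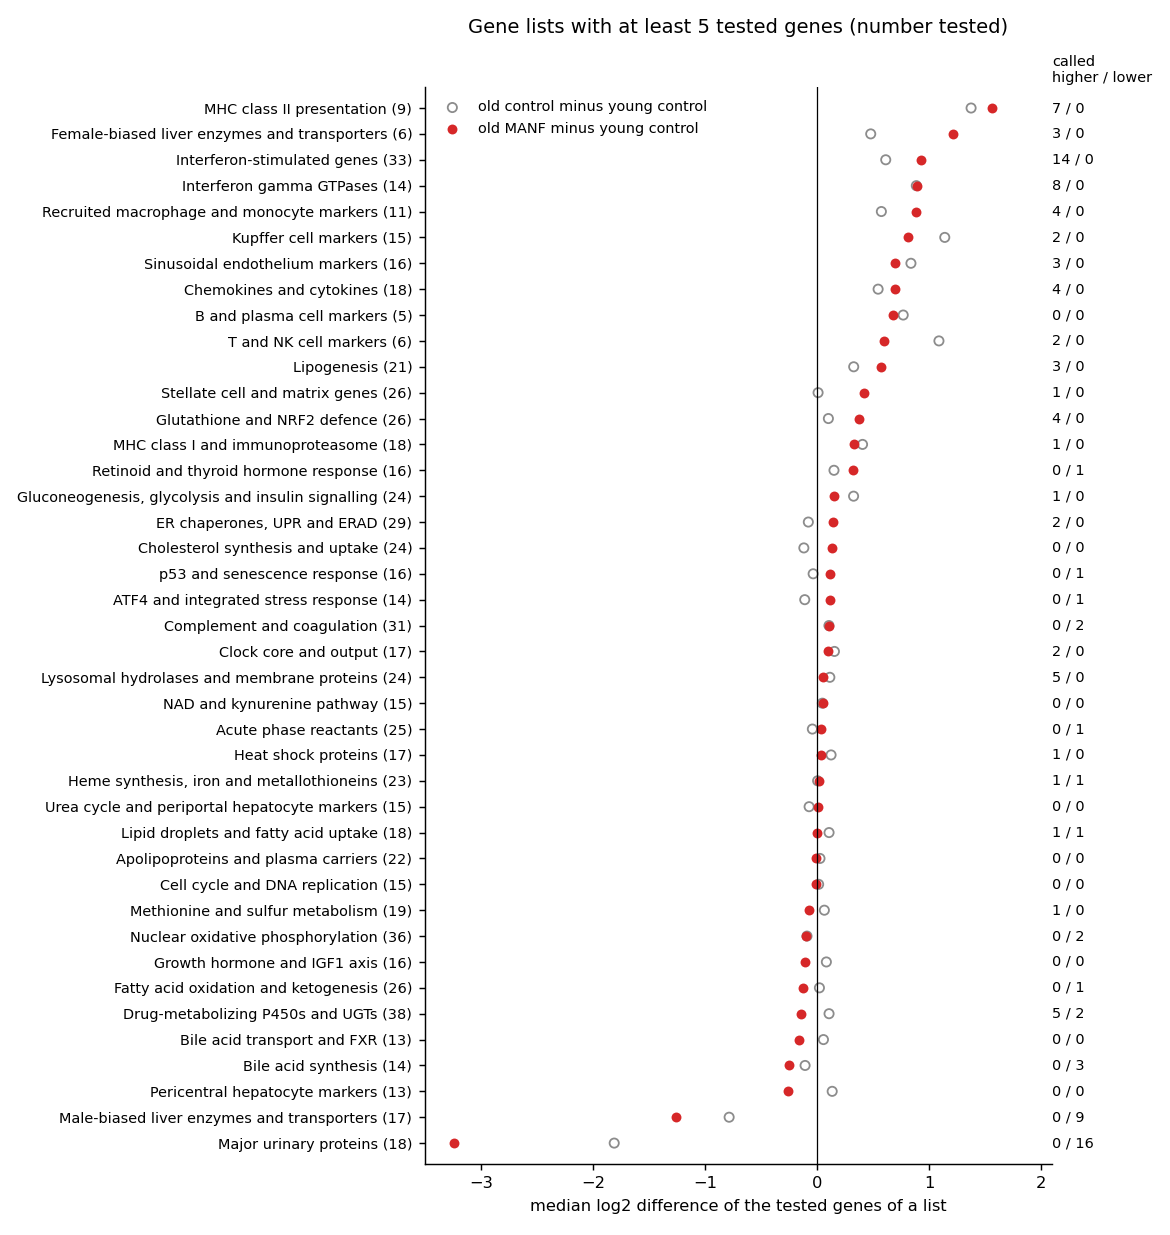
Median log2 difference of each gene list with at least 5 tested genes, for old MANF against young control (filled) and old control against young control (open), with the number tested behind the name and the calls higher and lower for old MANF at the right. The medians run from -3.24 for major urinary proteins to 1.56 for MHC class II, and most metabolic lists lie near 0.

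The remaining genes with the largest changes were Chrna4 and Nipal1. Chrna4, a subunit of the nicotinic acetylcholine receptor, was read at 0.228, 0.694, 0.324 and 0.445 RPKM in young control livers. Only replicate 2 of these reached 0.5 RPKM, so Chrna4 owed its entry to old MANF libraries and a rise was built in. Chrna4 in old MANF livers was at 3.65, 7.9, 1.29 and 3.42 RPKM (log2 2.03 ± 0.39), and these values are a description. Chrna4 was not called without old MANF replicate 1 or 4 or young control replicate 1, 3 or 4 (adjusted p up to 0.0659). Nipal1, a magnesium transporter, was read at 0.862, 0.943, 0.494 and 0.724 RPKM in young control livers. Nipal1 in old MANF livers was at 1.32, 7.04, 3.78 and 5.91 RPKM (log2 1.73 ± 0.38, adjusted p = 0.0355). Nipal1 was not called without old MANF replicate 2, 3 or 4 or young control replicate 1, 2, 3 or 4 (adjusted p up to 0.0934) or by voom (0.062). The spread over old MANF livers was wide for both. None of these values fell within the young control range, which the rule that named both genes required.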

How the data were processed

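Per the labels' protocols, Trizol was used on frozen liver pieces, and libraries came from the TruSeq Stranded mRNA kit. The authors deposited 1 table of RPKM values for 24010 entries. STAR 2.4.2a, HTSeq and mm10 are named in the submitters' processing notes; whether strand was used and how reads aligning to several genes were counted was not given in the sources used here. Of the entries, 6664 were 0 in all 16 libraries and 24 had gene names turned into dates.

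Members and gene lists were chosen with earlier results of these data known. A gene was kept (10365) where 4 or more of the 8 libraries had 0.5 RPKM or more, and 13645 were left out. Values were taken as log2(RPKM + 0.5), and each library was shifted by its median deviation from the gene means. A log2 difference on this scale understates the change of low genes. The main test was limma 3.58.1 with an intensity trend in R 4.3.3, two-sided, with 1 mean per group and Benjamini-Hochberg adjustment over the 10365 genes; an adjusted p of old MANF against young control is from it unless another setting is named beside it, and ± after a log2 is its standard error. Values of genes are RPKM as deposited, with SD over 4 animals, so p-values measure the spread between animals. Adjusted p-values that involve old control livers are from limma on all 16 libraries with the same genes and scaling. Alternatives were no scaling, quantile normalization, pseudocounts of 0.1 and 1, no filter, a minimum of 1 RPKM, a replicate block, voom on whole reads, fits on other sets of libraries and leaving out each library.

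Whole reads were recovered from the RPKM steps: 100% of 237209 values above 0 were whole within 0.001 reads, and voom on these reads called 682 genes. On simulated data with the same 10365 genes, the fit of old MANF against young control recovered 86% of 100 genes changed by a log2 of 1 and 99% of 100 changed by a log2 of 2, and called 13 unchanged genes. Each gene was drawn independently with its own spread. Deviations that 1 library shares over many genes were not simulated, so these rates do not cover them.

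Genes were named by a rule: the 15 largest called rises and falls without overlap and at least 1 RPKM in a group, up to 4 called members of each list by smallest p, up to 2 members of lists with 0 calls, and Manf and Cdnf. For genes named as largest rises or falls, the absence of overlap was thus set by the rule and is a description. Genes without a name of their own, 20 of the 563 called, were counted only. Clec4f, Gbp3, Hspa5, Irgm1, Mup3, Mup20, Mup21, Rarres1 and Trim30a were named after their values were seen, and Cd3e, Cd3g, Cpa1, Ly6c2 and Myh4 as markers. Positions are from GENCODE M21 (GRCm38) and promoters from RefSeq (GRCm38.p6), with the first listed window where a gene had several (4163 genes). Identical values were found in 0 pairs of libraries. The labels did not state that replicate numbers pair the animals, and the main test used no pairing.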

Additional observations from a re-analysis of the deposited data

Results flagged for a closer look

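Within groups of 4 libraries, 19 of 234 gene and group combinations had a liver whose gap to the nearest other exceeded Dixon's critical value for groups of this size, which chance gives in about 1 in 20. Young control replicate 2 stood above the other 3 young controls for immune genes: Cd74 at 57.9 RPKM (others 17.3 to 19.3), H2-Aa at 28.3 RPKM (8.91 to 10.6), H2-Eb1 at 30.1 RPKM (9.0 to 10.7), Ctss at 24.5 RPKM (9.92 to 11.5), Jchain at 3.03 RPKM (0.262 to 0.474), Npc2 at 20.4 RPKM (all 15.1) and Cd3e at 0.12 RPKM (0.0108 to 0.0285). The same liver stood below the others for Mup7, at 754 RPKM (1252 to 1353), and Cox5a, at 50.7 RPKM (52.2 to 52.4). Young control replicate 1 was high for Manf, at 14.4 RPKM (8.57 to 8.95), and Hspa5, at 124 RPKM (73.9 to 80.8). Young control replicate 3 was high for Rgs16, at 27.5 RPKM (2.54 to 6.48).

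Among old MANF livers, replicate 3 was high for Mup11 at 72.8 RPKM (3.14 to 12.6), Ugt2b37 at 0.807 RPKM (0.284 to 0.344) and Cyp4a14 at 169 RPKM (67.2 to 80.1), and low for Cd3g at 0.267 RPKM (0.419 to 0.449). Replicate 2 was high for Acly at 91.7 RPKM (59.6 to 61.8), replicate 1 for C1qa at 51.6 RPKM (35.9 to 38.5) and replicate 4 for Cxcl1 at 5.83 RPKM (3.91 to 4.11).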

How the results depend on the processing

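The count of 563 genes was 482 to 807 under no scaling, quantile normalization, other pseudocounts, other filters and voom, but the split was 684 higher and 123 lower without scaling. With all 16 libraries 337 genes were called, 154 of them higher, and with 14 libraries, chosen after seeing the data, 1268, 712 higher and 556 lower. Leaving out 1 library gave 172 to 603 calls, 97 to 378 higher and 73 to 256 lower. The replicate block left 208 genes, 126 higher and 82 lower, and 77 between old control and young control. Animals with the same number did not deviate together: the correlations were -0.103, 0.0287, -0.115 and 0.0477, and 1 of 4 was closest to its own number. Old control against young control gave 22 to 111 genes, and old MANF against old control 2 to 95, with 1 library left out; on the 8 old libraries alone the latter gave 0 (limma; 1109 at an unadjusted p under 0.05). The distance between old groups was 0.0017 to 0.0875 with 1 library left out. The cause of these shifts was not tested.

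Of 96 called genes named here, 34 passed in every setting and 44 in all 8 fits without 1 library, and 0 of 1977 gene and setting combinations changed sign. The fit on all 16 libraries lost 41 of the 96, no filter 9, voom 4, no scaling 3, a pseudocount of 0.1 3, quantile normalization 2 and the replicate block 35. List medians moved beyond the spread between replicates in 9 of 774 combinations. With 4 animals per group, small changes and genes near 0.5 RPKM were least certain.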
